A study of Rattus norvegicus with 12 samples.

Results

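Immediate early genes are transcribed within minutes to hours of a stimulus, without new protein synthesis, and many of them encode transcription factors. In liver they are the first wave of transcription after 2/3 partial hepatectomy (PH), the operation after which the remaining lobes grow back. JUN, JUNB and JUND pair with FOS or ATF3 in AP-1 dimers, which bind DNA through a leucine zipper. EGR1 and KLF6 are zinc finger proteins. MYC pairs with MAX at E-boxes and drives genes of growth and ribosome production. IER3 is a short-lived stress response protein that acts on cell survival and is no DNA-binding factor. The genes were chosen by symbol, as FOS, JUN, JUNB, JUND, FOSL2, EGR1, ATF3, MYC, KLF6 and IER3. Of these 10 genes, 9 were found by name among 14692 genes listed, and FOSL2 was not analysed here. All 9 genes passed the filter on low values, which asked for 1 RPKM or more on average and left 8459 genes in all. RPKM scales reads by transcript length and by the reads of the library, so that levels of different genes can be compared per length.

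Whole liver of male Sprague Dawley rats, 4 to 5 months old, came from 4 times after PH, 0, 4, 12 and 24 h, in 3 surgical groups. Control rats had a sham fistula 24 h before PH. In the other groups the bile was drained through a catheter in the bile duct, a biliary fistula, from 24 h before PH. Of these, BF is named for the fistula alone and BA for the fistula with sodium taurocholate, a bile acid (BA), given at 0.5 mg/g/day through the duodenal catheter, starting 12 h ahead of PH. Rats of every group carried a duodenal catheter and received saline, and all, including those at 0 h, had surgery the day before. Names follow the sample titles. The sample descriptions give the infusion to the samples titled BF and the fistula alone to those titled BA, so the labels alone do not settle which of these groups was infused. The study's methods use BF for the fistula alone, as the titles do. CYP7A1, the rate-limiting enzyme of BA synthesis, is repressed by BA returning from the gut and can be set beside the names. It stood at 387 RPKM in BF, 54.9 RPKM in BA and 60.0 RPKM in Control at 0 h. It was highest in BF at the later times as well, with 13.8, 136 and 334 RPKM against 1.81, 3.17 and 68.8 RPKM in BA and 4.59, 8.53 and 57.3 RPKM in Control. That is the direction of the titles, and the groups were not assigned from it. Each of the 12 columns was the authors' combination of 2 sequencing runs, the first on a single rat and the second on RNA combined from 3 others. Each value below is therefore 1 number per group and time, without a spread between the 4 rats behind it.

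Read depth is unknown. The RPKM of a column summed to between 727435 and 982826, with the highest total in BA at 4 h. Hepatocyte markers, 5 genes of which all were above 0, summed to 345997 RPKM in that column and to between 79789 and 151881 RPKM in the other 11. ALB alone accounted for that excess, with 303637 RPKM against 81796 and 78927 RPKM in the 4 h columns of Control and BF, while TF was lower there, at 8697 RPKM against 11931 and 10170 RPKM. The column of BF at 12 h held 131 RPKM of 8 pancreatic acinar markers, against 5.10 to 23.0 RPKM elsewhere. Summed neutrophil markers, 5 genes, were at 6.07 to 25.6 RPKM at 0 h, 40.5 to 56.98 RPKM at 4 h, 52.3 to 65.9 RPKM at 12 h and 31.1 to 58.3 RPKM at 24 h. Between 0 and 4 h in Control, S100A8 went from 0.63 to 13.8 RPKM and S100A9 from 2.25 to 24.7 RPKM. There CSF3R went from 0.22 to 0.57 RPKM and NCF1 from 2.96 to 1.43 RPKM, and MPO stayed at or near 0 in all columns. Kupffer cell and macrophage markers ranged over 360 to 516 RPKM, endothelial markers over 38.7 to 63.3 RPKM, stellate cell markers over 14.7 to 35.7 RPKM, cholangiocyte markers over 4.95 to 13.5 RPKM, erythroid markers over 101 to 288 RPKM and lymphocyte markers over 0.570 to 4.72 RPKM. In whole liver, more RNA per cell and more cells of a type cannot be told apart, and the part of these markers in the results below was not tested.

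The promoters of JUNB and KLF6, whose 4 h rises were called under every alternative tried, and of JUND, whose change was not called, show the stretches in which regulators of these genes are usually sought. They are the 250 bases before the gene start in RefSeq's annotation of the GRCr8 rat assembly, which is not the assembly of the deposited values, and 4 of the 9 genes were matched there. JUNB lies at chr19:40080876-40081125 on the plus strand, JUND at chr16:18769772-18770021 on the minus strand and KLF6 at chr17:69458479-69458728 on the minus strand. Each is printed 5′ to 3′ toward the gene, with capitals on a TATAA box, a cAMP response element (CRE), an EGR site, a CArG box or an E-box.
JUNB: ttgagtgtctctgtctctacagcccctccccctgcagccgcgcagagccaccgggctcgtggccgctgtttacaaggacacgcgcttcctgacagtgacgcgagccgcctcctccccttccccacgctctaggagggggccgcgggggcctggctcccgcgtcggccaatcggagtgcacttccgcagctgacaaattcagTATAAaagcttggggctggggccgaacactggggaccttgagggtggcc
JUND: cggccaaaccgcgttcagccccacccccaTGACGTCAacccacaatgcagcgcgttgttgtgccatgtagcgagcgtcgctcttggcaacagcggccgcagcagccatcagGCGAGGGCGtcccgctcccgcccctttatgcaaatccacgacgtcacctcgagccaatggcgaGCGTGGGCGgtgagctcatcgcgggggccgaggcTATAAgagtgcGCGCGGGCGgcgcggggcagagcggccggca
KLF6: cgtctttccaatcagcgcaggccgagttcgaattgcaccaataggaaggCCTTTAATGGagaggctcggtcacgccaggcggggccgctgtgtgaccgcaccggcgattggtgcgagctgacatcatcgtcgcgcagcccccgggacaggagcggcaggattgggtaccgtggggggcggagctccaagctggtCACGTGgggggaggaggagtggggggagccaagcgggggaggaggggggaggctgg

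Searched on both strands, the JUNB promoter held TATAA 49 bases before the gene start and part of a CRE, TGACG. JUND held a full CRE, TGACGTCA, 221 bases before the start, TATAA at 42 bases and 3 EGR sites, GCGNGGGCG. KLF6 held a CArG box, the binding motif of serum response factor, at 201 bases and an E-box, CACGTG, at 56 bases. The EGR1 promoter, not printed, held 2 CArG boxes, at 105 and 83 bases, and 2 copies of TGACG. Over 33469 RefSeq promoters of the same length, 24.0% held TATAA, 18.2% TGACG, 1.59% the full CRE, which contains TGACG, 1.5% a CArG box, 5.59% CACGTG, 4.29% an EGR site and 30.5% the GC box, GGGCGG, which overlaps EGR sites. The AP-1 site TGANTCA, in 6.34% of all promoters, and the STAT site TTCNNNGAA, in 7.67%, were not among the letters of these 4 windows. A match describes letters and is no evidence of binding.

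The first question was which of these genes changed with time after PH. A limma fit of log2(RPKM + 1) with terms for time and surgical group used the groups as blocks, and a gene was called at a Benjamini-Hochberg adjusted p under 0.05 over 8459 genes. The error of this fit is the departure of the groups from a shared time course, not the spread between rats. No column lies between 0 and 4 h, so a rise and fall within that interval would not be seen. The plot of all values by group and time shows the shapes, and the plot of shared changes shows the estimates.

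**Figure D1:**
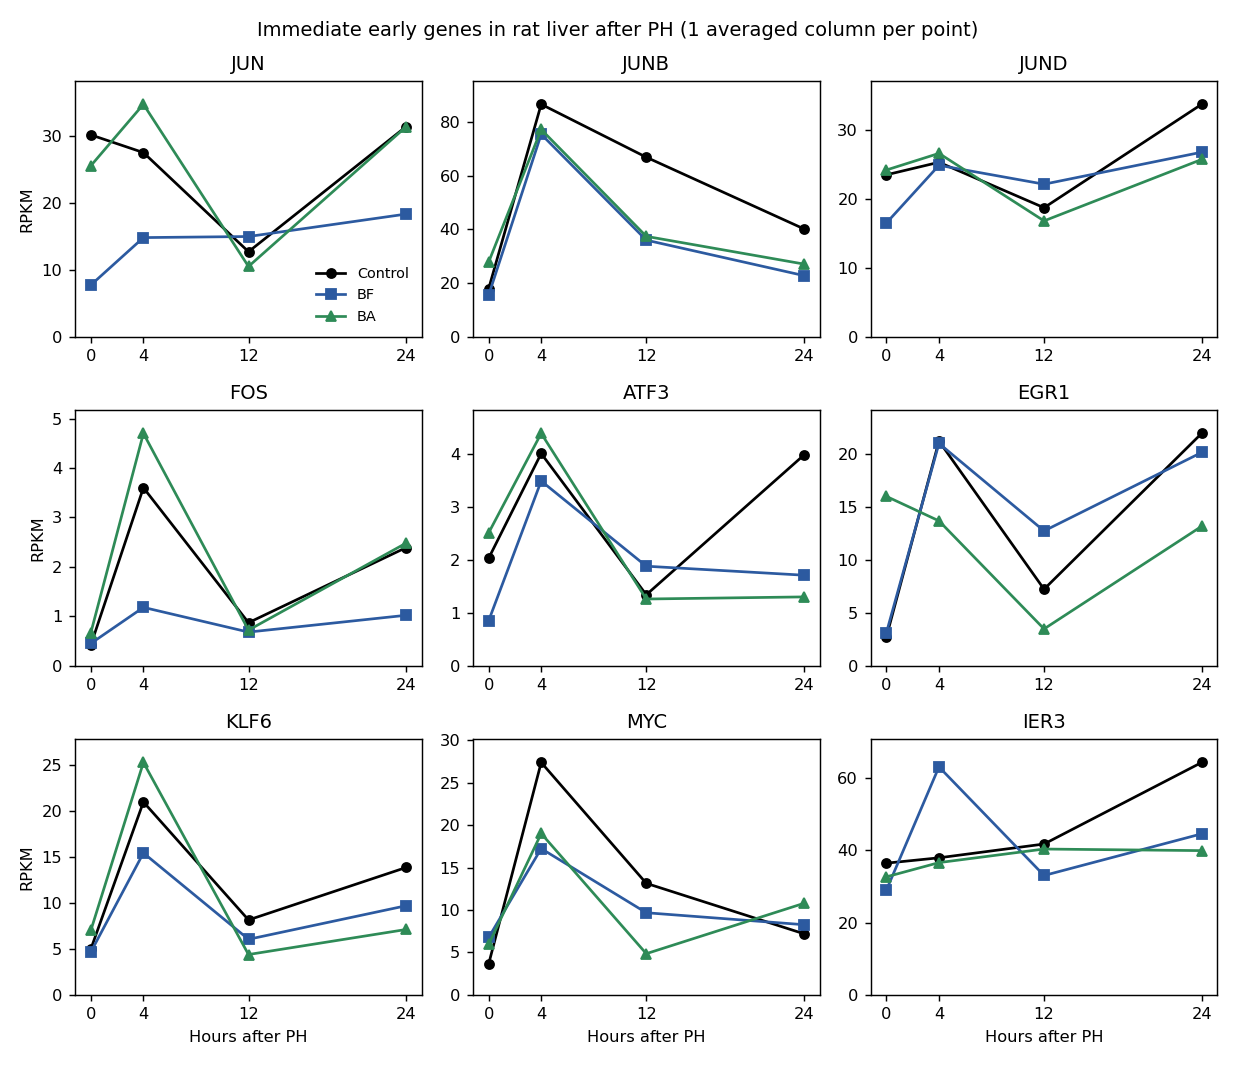
RPKM (linear axis) of the 9 genes against hours after PH, 1 panel per gene, with 1 averaged column per point and no error bars. JUNB, KLF6 and MYC were highest at 4 h in each of Control (black circles), BF (blue squares) and BA (green triangles), JUN fell between 4 and 12 h in Control and BA, and EGR1 at 0 h was at 16.0 RPKM in BA against 2.73 and 3.12 RPKM in the other groups.

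Between 0 and 4 h, JUNB, MYC, KLF6, FOS and ATF3 rose, 5 of 9 genes, where 12.9% of all genes tested were called higher. All 9 estimates were above 0, with a median of 1.35 on the log2(RPKM + 1) scale, against a median of -0.20 over all genes. Rescaling the columns to an equal median gave 6 of 9 called, EGR1 added, and a median of 1.48. The share of higher genes among all calls was 28.4% as deposited and 42.7% after rescaling.

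JUNB was the most abundant JUN gene at 4 h. Its level was 17.9, 86.6, 66.9 and 40.2 RPKM at 0, 4, 12 and 24 h in Control. In BF the same series read 15.5, 75.5, 36.0 and 22.8 RPKM, and in BA 27.8, 77.2, 37.4 and 27.1 RPKM. The 4 h columns stood above every other column of their group, and no 4 h column overlapped the 0 h columns. The shared rise at 4 h was 1.96 on the log2 scale (SE 0.23, 95% interval 1.44 to 2.48, limma adjusted p = 0.000507), or 3.88-fold. JUNB then fell by 0.81 to 12 h (SE 0.23, limma adjusted p = 0.0317). That call was lost without the BA or BF group, without BA at 4 h, without BF at 12 h and without the filter, with adjusted p up to 0.192. At 24 h the estimate was 0.54 above 0 h (adjusted p = 0.0956), which missed the threshold and was called without the BA group (adjusted p = 0.0339).

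JUN, the transcription factor whose N-terminal kinase gives JNK its name, had no peak at 4 h in common. Control held 30.1, 27.5, 12.7 and 31.4 RPKM at the 4 times, and BA 25.5, 34.7, 10.5 and 31.3 RPKM. BF began at 7.70 RPKM and held 14.8, 14.9 and 18.3 RPKM at the later times. Control and BA were thus high at 0, 4 and 24 h and low at 12 h, while BF was lowest of the groups at 0, 4 and 24 h and highest at 12 h. The shared change at 4 h was 0.39 (95% interval -0.39 to 1.17, adjusted p = 0.384). The estimate from 4 to 12 h was -0.89 (SE 0.35, adjusted p = 0.0855), not called with all columns. It was called without the BF group or without the BF column at 12 h, with a lowest adjusted p of 0.0144.

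JUND, the JUN gene that resting cells express, moved least. Control held 23.5, 25.3, 18.7 and 33.7 RPKM, BA 24.2, 26.6, 16.8 and 25.7 RPKM, and BF 16.5, 24.8, 22.1 and 26.7 RPKM. The 4 h columns lay within 24.8 to 26.6 RPKM and overlapped no 0 h column, yet the shared change of 0.27 missed the threshold (95% interval -0.10 to 0.63, adjusted p = 0.208). Its change from 4 to 12 h was -0.40 (adjusted p = 0.0953), called without the BF column at 12 h (adjusted p = 0.0409). The same omission called its 24 h difference from 0 h, 0.42 with all columns (adjusted p = 0.0706, and 0.0444 without that column).

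The makeup of the JUN family therefore differed between times. Summed over the 3 genes, it held 39.7 to 77.5 RPKM at 0 h and 115 to 139 RPKM at 4 h. JUNB made up 25.0% of the sum in Control, 35.9% in BA and 39.0% in BF at 0 h, and 62.2%, 55.8% and 65.6% at 4 h. JUN made up 42.1% in Control, 32.9% in BA and 19.4% in BF at 0 h. By 12 h the JUNB share was still 49.3% to 68.1%, and by 24 h it was 32.2% to 38.2%, beside JUN with 27.0% to 37.3% and JUND with 30.6% to 39.5%. These shares are RNA per length and say nothing of dimers.

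**Figure D2:**
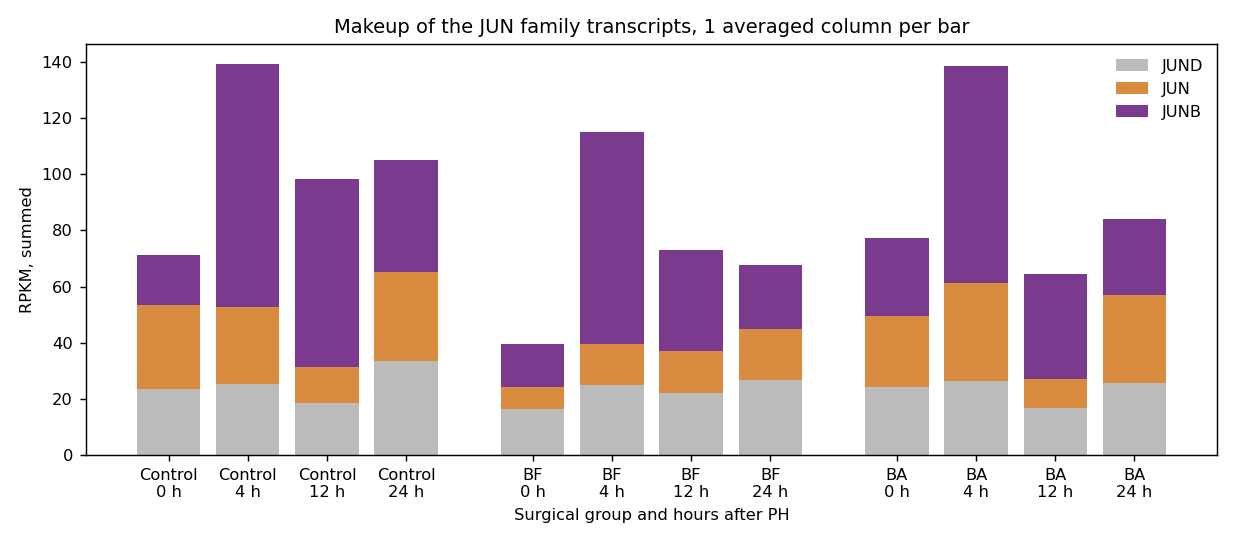
Stacked bars of summed RPKM (axis from 0) of JUND (grey), JUN (orange) and JUNB (purple), 1 averaged column per bar, for the 4 times in Control, BF and BA. The sum was highest at 4 h in each group, between 115 and 139 RPKM, with JUNB as the largest segment, and BF at 0 h had the lowest sum, 39.7 RPKM.

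FOS, the partner of JUN proteins in AP-1, was low in all 12 columns. Control held 0.42, 3.60, 0.87 and 2.39 RPKM, BA 0.67, 4.70, 0.72 and 2.48 RPKM, and BF 0.45, 1.18, 0.68 and 1.02 RPKM. Every group was highest at 4 h, with BF below the other groups at 4 and 24 h and close to them at 0 and 12 h. The shared rise at 4 h was 1.35 (SE 0.24, limma adjusted p = 0.00234), which understates the ratios of 8.57 in Control, 7.01 in BA and 2.62 in BF because 1 RPKM was added. From 4 to 12 h FOS fell by 1.13 (SE 0.24, limma adjusted p = 0.0113), a call lost without Control or without BA (highest adjusted p = 0.126). Per 100 RPKM of JUN family RNA, FOS was at 0.588 to 1.13 at 0 h, and at 4 h at 3.39 in BA, 2.58 in Control and 1.03 in BF.

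ATF3, a stress-induced partner of JUN proteins that often represses, was also low. Control held 2.03, 4.01, 1.34 and 3.98 RPKM, BA 2.51, 4.39, 1.26 and 1.30 RPKM, and BF 0.85, 3.49, 1.88 and 1.71 RPKM. The 4 h columns were the highest of each group and lay within 3.49 to 4.39 RPKM, above all 0 h columns. The shared rise of 0.87 (SE 0.28, limma adjusted p = 0.0305) was lost without any 1 of the 3 groups, without BA at 4 h or without the filter (adjusted p up to 0.163). The fall to 12 h of 1.00 (SE 0.28, limma adjusted p = 0.0312) was lost in the same settings, with adjusted p up to 0.124.

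EGR1, which couples growth factor signals to transcription, had the widest ratio between groups of the 9 genes at 0 and 12 h, though not at 4 and 24 h. Control held 2.73, 21.2, 7.22 and 21.9 RPKM, BF 3.12, 21.0, 12.7 and 20.1 RPKM, and BA 16.0, 13.7, 3.47 and 13.2 RPKM. Control and BF were low at 0 h and high at 4 and 24 h, while BA was already high at 0 h and did not exceed that level later. The shared change at 4 h was 1.59 with the largest error of the 9 genes (SE 0.59, 95% interval 0.27 to 2.92, adjusted p = 0.0511), and it was not called. Without the BA group EGR1 was called with adjusted p = 0.00563, and without the BF column at 12 h with adjusted p = 0.0476. The estimate from 4 to 12 h was -1.28 (adjusted p = 0.135) and that from 0 to 24 h 1.57 (adjusted p = 0.0625), neither called. Without BA the 24 h estimate was 2.49 and called (adjusted p = 0.00152), and with rescaled columns it was 1.26.

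KLF6, a zinc finger factor induced early in many tissues, rose and fell in every group. Control held 5.0, 21.0, 8.16 and 13.9 RPKM, BA 7.03, 25.3, 4.39 and 7.12 RPKM, and BF 4.67, 15.5, 6.05 and 9.71 RPKM. The lowest 4 h column, in BF, exceeded every column of the other times. The shared rise was 1.71 (SE 0.25, limma adjusted p = 0.00111), or 3.27-fold. KLF6 fell by 1.59 to 12 h (SE 0.25, limma adjusted p = 0.00533), or 3.02-fold, which was called in 9 of 9 alternatives and was the largest fall among the 9 genes.

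MYC held 3.63, 27.4, 13.2 and 7.20 RPKM in Control, 5.94, 19.0, 4.85 and 10.8 RPKM in BA, and 6.76, 17.3, 9.68 and 8.27 RPKM in BF. The 4 h columns were the highest of each group and overlapped no other time. Control had the lowest value at 0 h and the highest at 4 h, a ratio of 7.55, against 3.20 in BA and 2.55 in BF. The shared rise was 1.79 (SE 0.33, limma adjusted p = 0.00291), or 3.47-fold. MYC fell by 1.18 to 12 h (SE 0.33, limma adjusted p = 0.0310), a call lost without the BA or BF group, without BA at 4 h, without BF at 12 h and without the filter, with adjusted p up to 0.147.

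IER3 was abundant before PH and had a 4 h rise past 2-fold in BF. Control held 36.5, 37.9, 41.8 and 64.4 RPKM, BA 32.7, 36.6, 40.4 and 39.9 RPKM, and BF 29.0, 63.1, 33.0 and 44.6 RPKM. Its highest columns were Control at 24 h and BF at 4 h, and BA stayed within 32.7 to 40.4 RPKM. No shared change over time was called with all columns as deposited, with 0.44 at 4 h (95% interval -0.07 to 0.95, adjusted p = 0.143) and -0.21 from 4 to 12 h (adjusted p = 0.505).

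**Figure D3:**
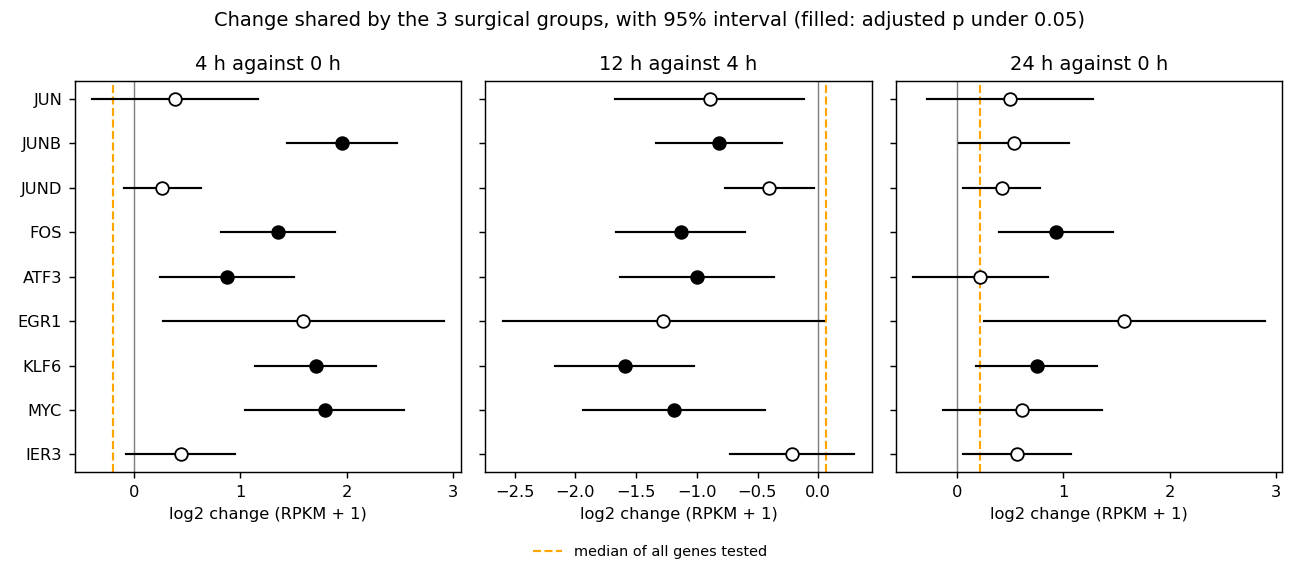
Shared log2 change of (RPKM + 1) for each gene in 3 comparisons over time, with points for the limma estimate, bars for its 95% interval, filled points for an adjusted p under 0.05 and a dashed line at the median of all 8459 genes tested. JUNB, FOS, ATF3, KLF6 and MYC are filled at 4 h against 0 h and again, lower, at 12 h against 4 h, and FOS and KLF6 are filled at 24 h against 0 h, where rescaled columns left no gene called.

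From 4 to 12 h, KLF6, MYC, FOS, ATF3 and JUNB fell, 5 of 9 genes, where 12.0% of all genes tested were called lower. These were the genes that had risen, and the comparisons share the 4 h columns. All 9 estimates were below 0, with a median of -0.998 against 0.06 over all genes. At 24 h against 0 h, FOS was higher by 0.93 (SE 0.24, limma adjusted p = 0.0151) and KLF6 by 0.75 (SE 0.25, limma adjusted p = 0.0451), 2 of 9 genes, where 30.6% of all genes tested were called higher. The median gene stood 0.21 higher at 24 h. Rescaling called 0 of 9 genes, with adjusted p = 0.102 for FOS and 0.234 for KLF6, and 6 of 9 genes had an unadjusted p under 0.05 as deposited, beside 47.6% of all genes tested. It took the share of higher genes among all calls from 84.7% to 35.3%. The FOS call was also lost without Control or BA, and the KLF6 call without Control or BF, without BF at 12 h or without the filter.

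The comparison of 24 h with 12 h was added after the values had been seen. JUN was higher at 24 h by 1.00 (SE 0.35, limma adjusted p = 0.0405), FOS by 0.71 (limma adjusted p = 0.0359) and JUND by 0.56 (limma adjusted p = 0.0224), 3 of 9 genes, where 43.6% of all genes tested were called higher. The median gene stood 0.33 higher. After rescaling, none of these 3 genes was called (adjusted p from 0.262 to 0.592), JUNB was called lower by 1.04 (adjusted p = 0.0156), and the share of higher genes among all calls went from 96.0% to 36.2%. The JUN and FOS calls were also lost without Control, without BA and without the filter, and the JUND call without Control and without BA. EGR1 and KLF6 were called higher without BA, with a lowest adjusted p of 0.0205 for each, and KLF6 also without the BA column at 4 h.

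Within each group, single columns can be set side by side without a test, and a log2 ratio of 1 in size between values of RPKM + 1 was taken as past 2-fold, which is stricter than 2-fold in RPKM for weakly expressed genes. In Control, FOS, JUNB, EGR1, MYC and KLF6 were past 2-fold higher at 4 h against 0 h, 5 of 9 genes against 4.01% of all genes. In BF, JUNB, EGR1, ATF3, MYC, KLF6 and IER3 were, 6 of 9 against 5.13%, and FOS, 2.62-fold higher in RPKM, was a seventh with a pseudocount of 0.1 RPKM. In BA, FOS, JUNB, MYC and KLF6 were, 4 of 9 against 4.61%. JUNB, MYC and KLF6 stood in all 3 counts. Of all genes tested, 0.437% had a higher 4 h ratio than MYC in Control, 0.260% a higher one than EGR1 in BF and 1.64% a higher one than KLF6 in BA.

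From 4 to 12 h, 6 of 9 genes were past 2-fold lower in Control against 5.18% of all genes, namely FOS, JUN, EGR1, ATF3, MYC and KLF6. In BF, JUNB and KLF6 were past 2-fold lower, 2 of 9 against 2.59%. In BA, 7 of 9 genes were, against 5.24%, with JUND short of it. IER3 in BA rose from 36.6 to 40.4 RPKM. At 24 h against 0 h, FOS, JUNB, EGR1 and KLF6 were past 2-fold higher in Control, 4 of 9 against 8.29%. JUN and EGR1 were in BF, 2 of 9 against 9.27%, and FOS was in BA, 1 of 9 against 3.83%. FOS, KLF6 and ATF3 in BF stood at 2.27, 2.08 and 2.01 times their 0 h RPKM and missed that limit after 1 RPKM was added, and with a pseudocount of 0.1 RPKM the count in BF was 4. Rescaling lowered these 24 h counts to 1 in Control, 1 in BF and 0 in BA.

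At 12 h against 0 h, the genes had parted. JUNB in Control was still 3.74-fold and MYC 3.62-fold above 0 h, while JUNB stood at 2.32-fold in BF and 1.35-fold in BA. MYC was at 1.43-fold in BF and 0.816-fold in BA. JUN at 12 h was 2.38-fold below 0 h in Control and 2.44-fold below in BA, but 1.94-fold above in BF. EGR1 was 2.64-fold above 0 h in Control, 4.08-fold above in BF and 4.61-fold below in BA. These are ratios of RPKM between 2 columns, with no error. The BF column at 12 h was the one with 131 RPKM of pancreatic acinar markers, whose part in these ratios was not tested.

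The second question was whether the surgical groups differed by a constant amount over the 4 times, which the limma fit used as blocks. A difference confined to some of the times goes into the error of this fit. The fit therefore cannot decide whether groups differed at a single time. Of the 9 genes, 0 were called in each of the 3 group comparisons. BF against Control called 0.804% of all genes tested in either direction, BA against Control 0.0709% and BF against BA 0.0118%. Rescaling took the share of higher genes among the calls of BF against Control from 39.7% to 68.3%. Without adjustment, 3 genes had p under 0.05 in BF against Control, 0 in BA against Control and 2 in BF against BA, beside 21.9%, 22.7% and 7.81% of all genes tested. The comparisons share columns pairwise and are not independent.

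JUN averaged 0.80 lower in BF than in Control over the 4 times (SE 0.30, 95% interval -1.48 to -0.13, unadjusted p = 0.0246, limma adjusted p = 0.170). Against BA it was 0.76 lower in BF (limma adjusted p = 0.606). At 0 h JUN was 3.91-fold lower in BF than in Control and 3.31-fold lower than in BA, and at 12 h it was 1.18-fold and 1.43-fold higher. FOS averaged 0.49 lower in BF than in Control (limma adjusted p = 0.209) and 0.60 lower than in BA (limma adjusted p = 0.522). At 4 h FOS was 3.05-fold lower in BF than in Control and 3.98-fold lower than in BA, and at 24 h 2.34-fold and 2.43-fold lower. JUNB averaged 0.52 lower in BF than in Control (limma adjusted p = 0.184), with RPKM 1.15-fold lower at 0 and 4 h, 1.86-fold at 12 h and 1.77-fold at 24 h. Under the sample descriptions, whose names CYP7A1 runs against, BF and BA would change places in these sentences.

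At 4 h, JUNB, JUND and ATF3 lay close together in the 3 groups, with a highest over lowest ratio of 1.15, 1.07 and 1.26. FOS had a ratio of 3.98 and JUN of 2.35, each with BF lowest and BA highest. KLF6 had a ratio of 1.64 and MYC of 1.59, with BF lowest, and IER3 one of 1.72 with BF highest. At 0 h EGR1 was 5.85-fold higher in BA than in Control and 5.12-fold higher than in BF, the widest ratio of the 9 genes at that time. The summed neutrophil markers stood at 6.07 RPKM in Control, 25.1 RPKM in BF and 25.6 RPKM in BA at 0 h, and their part in this difference was not tested. At 24 h ATF3 was 2.33-fold lower in BF and 3.06-fold lower in BA than in Control. No spread between rats stands behind any of these ratios.

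**Figure D4:**
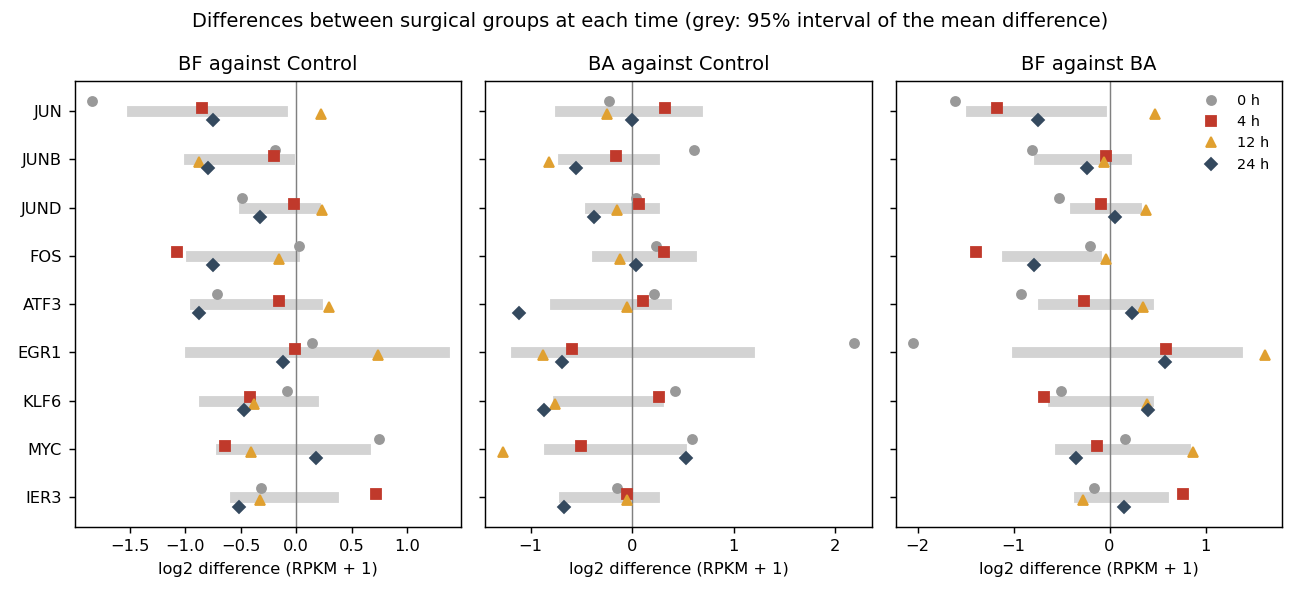
Difference in log2(RPKM + 1) between surgical groups for each gene at 0, 4, 12 and 24 h (circles, squares, triangles, diamonds), 1 averaged column against 1, with grey bars for the 95% interval of the mean difference in the limma fit. JUN and FOS lie below 0 in BF against BA at 0, 4 and 24 h, EGR1 at 0 h lies 2.19 above 0 in BA against Control, and no gene passed an adjusted p under 0.05 in any panel.

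Other genes of the same pathways were counted in the same limma fit. Genes named first are the up to 4 of each list with the largest called change at 4 h, and the rest were named after their values were seen. Over all genes tested, 32.4% were called lower at 4 h against 0 h, 13.9% higher at 12 h against 4 h and 5.54% lower at 24 h against 0 h, beside the shares given above for the opposite directions.

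Among other AP-1 and related leucine zipper proteins, 12 tested, 6 rose and 1 fell at 4 h, with a median of 0.36. CREM, a cAMP-responsive regulator, rose by 2.19 (SE 0.26, limma adjusted p = 0.000541), MAFF, a small MAF protein, by 2.12 (limma adjusted p = 0.00201), MAFK by 0.86 and ATF4, a factor of the amino acid response, by 0.72. ATF1 rose by 0.66 and JDP2, a repressor of AP-1, by 0.39, while MAFG fell by 0.52. Between 4 and 12 h 0 rose and 5 fell. CREM fell by 2.71, MAFF by 2.05, MAFK by 0.93 and ATF1 by 0.58. At 24 h against 0 h JDP2 was higher by 0.40, 1 of 12, and the median of 0.10 became -0.20 after rescaling.

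Among other EGR, NAB and KLF genes, 11 tested, 2 rose and 3 fell at 4 h, with a median of -0.05, and 0.08 after rescaling. KLF2, a flow-responsive factor of endothelium, rose by 1.28 (SE 0.15, limma adjusted p = 0.000507) and KLF4 by 0.76. KLF12, a repressor, fell by 1.77 (SE 0.11, limma adjusted p = 0.000102), KLF15, a regulator of amino acid and glucose metabolism, by 0.87 and NAB2, a corepressor of EGR1, by 0.63. KLF12 rose again by 1.26 from 4 to 12 h, while KLF9 fell by 1.07 and KLF2 by 0.62. At 24 h KLF4 and KLF2 were above 0 h by 0.59 and 0.49, and KLF15 was below it, with a change of -0.71. The median of this list at 24 h against 0 h was 0.13, and -0.18 after rescaling. Rescaled 24 h values of single list genes are not given here. KLF13 was lower in BF than in Control, with a difference of -0.68 (SE 0.10, limma adjusted p = 0.0286). It was the single call of these lists in any of the 3 group comparisons. BF against Control called 68 genes in all, 2 without the filter and 0 without the 4 h columns. The KLF13 call was therefore lost without the 4 h columns.

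In the MYC network, 6 tested, MAX, the partner of MYC, rose by 0.84 at 4 h (SE 0.15, limma adjusted p = 0.00238) and fell by 0.51 to 12 h. MXD1 fell by 0.52 (limma adjusted p = 0.0179) and MXD4 by 0.51 (limma adjusted p = 0.0251), both of which pair with MAX as repressors, and rescaling lost these falls (adjusted p = 0.0624 and 0.0538). The median at 4 h was -0.03, and 0.09 after rescaling. MXD3, a member of the same repressor family that proliferating cells express, was higher at 24 h than at 0 h by 2.12 (SE 0.25, limma adjusted p = 0.000571). The list median at 24 h against 0 h was 0.01, and -0.30 after rescaling.

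Of 15 genes known as MYC targets, 12 rose at 4 h and 0 fell, with a median of 0.94. NOLC1, a nucleolar protein, rose by 1.55 (SE 0.19, limma adjusted p = 0.000549), SRM, spermidine synthase, by 1.41, BOP1, a ribosome assembly factor, by 1.37 and POLR1B, a subunit of RNA polymerase I, by 1.22. The other called genes were RRS1, ODC1, NCL, NPM1, FBL, LDHA, EIF4E and HSPD1, with 0.48 to 1.105. By 12 h 4 fell from their 4 h level, namely NOLC1, POLR1B, RRS1 and BOP1, by 0.76 to 1.03. At 24 h against 0 h 12 were higher and 0 lower, with a median of 0.76, and 0.45 after rescaling. HSPD1, a mitochondrial chaperone, was highest of them with 0.91, and ODC1, the enzyme that begins polyamine synthesis, stood at 0.91 as well. In BF against Control 0 of the 15 were called by limma, 12 had an unadjusted p under 0.05, as did 21.9% of all genes tested, and the median was -0.42 against -0.11 over all genes.

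Of 10 AP-1 target genes, 6 rose and 1 fell at 4 h, with a median of 1.04. HMOX1, heme oxygenase, rose by 3.09 (SE 0.66, limma adjusted p = 0.00527), IL1RN, the antagonist of the interleukin 1 receptor, by 2.86 and TIMP1, an inhibitor of matrix proteases, by 1.56. The size of these rises differed between groups. At 4 h HMOX1 held 1182 RPKM in BA, 279 RPKM in Control and 158 RPKM in BF. IL1RN held 416, 151 and 109 RPKM in the same order, and TIMP1 39.6, 32.3 and 43.4 RPKM. PLAUR rose by 1.37 and MMP14 by 0.72, while CCND1, cyclin D1 of the G1 phase, fell by 1.503 (SE 0.47, limma adjusted p = 0.0285). IL1RN fell by 1.85 from 4 to 12 h. At 24 h TIMP1 was above 0 h by 1.85, VIM, an intermediate filament of mesenchymal cells, by 1.198 and MMP14 by 0.63. The list median at 24 h against 0 h was 0.73, and 0.42 after rescaling.

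Among other immediate early genes, 33 tested, 15 rose and 1 fell at 4 h, with a median of 0.79. GADD45B, a stress sensor, rose by 3.19 (SE 0.42, limma adjusted p = 0.000692), BTG2, an antiproliferative gene, by 3.09, CTGF, a matricellular growth factor, by 2.30 and SOCS3, the feedback inhibitor of STAT3, by 2.23. At 4 h BTG2 held 217 RPKM in BA, 63.8 RPKM in Control and 48.8 RPKM in BF. GADD45B held 80.3, 44.7 and 17.9 RPKM in the same order, SOCS3 85.1, 65.1 and 53.7 RPKM, and CTGF 18.4, 22.9 and 7.62 RPKM. BCL3, NFIL3, ID1, NR4A1, CEBPB, BTG1, RHOB, PPP1R15A, IER2, SGK1 and PLK3 rose by 0.61 to 1.78, and PLK2 fell by 1.24. Between 4 and 12 h 15 fell and 0 rose, led by GADD45B with -2.84, BTG2 with -2.25 and CTGF with -2.02. At 24 h against 0 h ID1 and SOCS3 were higher by 1.04 and 0.77. ZFP36L1, TRIB1 and DUSP1, a phosphatase of MAP kinases, were lower, with changes of -0.61, -0.88 and -1.14. The median of 0.19 became -0.12 after rescaling.

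Of 7 factors that act upstream of immediate early genes, STAT3, which carries the interleukin 6 signal, rose by 1.68 at 4 h (SE 0.30, limma adjusted p = 0.00254). ELK3 fell by 0.47 (limma adjusted p = 0.0285, and 0.0517 after rescaling). The median was -0.11, and 0.01 after rescaling. Of the 7 factors, 0 were called by limma from 4 to 12 h and at 24 h against 0 h, where 1 and 2 had an unadjusted p under 0.05, beside 40.4% and 47.6% of all genes tested.

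The genes whose shape over the 12 columns was most like that of each immediate early gene were found by the mean absolute difference of centred log2 values, among 4835 genes (4836 for JUND) that passed the filter and spanned at least 1 on the log2 scale. JUNB was nearest to UBE2G2, a ubiquitin-conjugating enzyme, with a mean difference of 0.13, then SOCS3 with 0.16 and ACER2 with 0.16, against a deviation of JUNB from its own mean of 0.67. UBE2G2 held 27.1, 119, 89.9 and 58.0 RPKM in Control, a peak at 4 h with the same slow decay as JUNB. KLF6 was nearest to DUSP8 (0.20), WDR43 (0.22) and AZIN1 (0.22). MYC was nearest to ACER2 (0.26), ETS2 (0.28) and GYS2 (0.28). FOS was nearest to PPP2CA (0.24), FAM108B1 (0.24) and MAT2A (0.25), and ATF3 to CDC42EP1 (0.17), CYP26A1 (0.21) and SLC20A1 (0.21). JUND was nearest to PRKAA1 (0.09), SRRM1 (0.11) and SESTD1 (0.12), and IER3 to UBR7 (0.13), INTS2 (0.14) and SF3A1 (0.14). JUN, nearest to GCH1 (0.31) and PAXIP1 (0.32), and EGR1, nearest to TAGLN (0.46), NOL5A (0.52) and MSLN (0.52), were farther from their nearest genes than the other 7 were. These distances are absolute and are not scaled to how much a gene itself varied. The deviation of a gene from its own mean was 0.84 for EGR1, 0.59 for JUN, 0.24 for IER3 and 0.22 for JUND. All columns are shared by both genes of a pair, so that these are descriptions without a test.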

How the data were processed

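Liver RNA of 12 conditions was sequenced, and the deposited RPKM values, computed by the authors, combine 2 runs per condition. The submitters' processing notes name CASAVA, Bowtie 0.12.2 and the builds mm8 and rn4 without a role. The study states that RPKM of the 4 animals was averaged, but the weight of each run, the reads per sample and the annotation are not given in the sources used here. RPKM divides by library total, so abundant transcripts press down all others. Groups came from the sample titles.

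limma 3.58.1 in R 4.3.3, with a mean-variance trend, was fitted to log2(RPKM + 1), a pseudocount that understates changes of weakly expressed genes, with additive terms for time and surgical group (6 residual degrees of freedom). Genes averaging 1 RPKM or more across the columns were tested, with Benjamini-Hochberg adjustment. Tests were two-sided. The fit was tested on simulated data. The study's set test was not used. Named genes were all listed members, up to 4 called genes per list with the largest 4 h change and the 3 nearest genes in shape. Some genes selected in this way are left out of the text. The members and lists were chosen with earlier results of these data known. Promoter sequences came from RefSeq (GRCr8). Alternatives were a pseudocount of 0.1 RPKM, no filter, rescaled columns, no trend, left-out groups, times or columns, and exchanged BF and BA names. Python 3.11.15, pandas 2.3.3, numpy 2.4.6 and matplotlib 3.10.9 were used.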

Additional observations from a re-analysis of the deposited data

Results flagged for a closer look

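MYC moved in opposite directions between 12 and 24 h in Control and BA, by -0.79 and 1.01 on the log2(RPKM + 1) scale. ATF3 moved in opposite directions between 0 and 24 h, by 0.72 in Control and 0.55 in BF against -0.61 in BA. Each rests on 1 averaged column per group and time, and these differences were not tested.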

How the results depend on the processing

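The 4 h rises of JUNB, MYC, KLF6 and FOS and the fall of KLF6 from 4 to 12 h were called in 9 of 9 alternatives each. Of 612 alternative values for the 9 genes, 525 kept sign and call status, 41 lost a call, 13 gained 1 and 33 changed sign, of which none was called. The causes were not tested.

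Without the filter, 2 genes of the 9 were called from 4 to 12 h, 1 at 24 h against 0 h and 1 at 24 h against 12 h, and 2 genes of all tested in BF against Control and 0 in BA against Control. With rescaled columns, 0 of the 9 were called at 24 h against 0 h and 1 at 24 h against 12 h, where 1699 of all genes were called instead of 3836. Counts past 2-fold at 24 h against 0 h were then 1 in Control, 1 in BF and 0 in BA, and a pseudocount of 0.1 RPKM gave 4 in BF. Exchanging the names BF and BA turned the calls over all genes to 6 in BF against Control and 68 in BA against Control, and the FOS difference to 0.115 in BF against Control and -0.487 in BA against Control.

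Leaving out 1 group, time or column gave 2155 to 3667 genes called at 4 h against 0 h (4 to 6 of the 9), 254 to 1385 from 4 to 12 h (1 to 5), 752 to 3392 at 24 h against 0 h (0 to 3) and 1067 to 4270 at 24 h against 12 h (0 to 4). The fewest calls came without BA, without BA, without BF and without Control. BF against Control ranged over 0 to 55 genes, BA against Control over 0 to 15 and BF against BA over 0 to 3. Of the 9 genes 0 were called in these group comparisons under any such setting.

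Signs that changed belonged to genes that were not called. Rescaling turned ATF3 to -0.089 at 24 h against 0 h and -0.094 at 24 h against 12 h, MYC to -0.43 and IER3 to -0.097 at 24 h against 12 h, MYC to 0.089 and IER3 to 0.007 in BF against Control, and JUN to 0.097 and JUND to 0.033 in BA against Control. With 1 group, time or column left out, IER3 ranged over -0.389 to 0.136 from 4 to 12 h, ATF3 over -0.03 to 0.634 at 24 h against 0 h and -0.031 to 0.601 at 24 h against 12 h, and MYC over -0.496 to 0.403 at 24 h against 12 h. In BF against Control, EGR1 ranged over -0.143 to 0.289, IER3 over -0.389 to 0.024 and MYC over -0.289 to 0.172. In BA against Control, ATF3 ranged over -0.353 to 0.089, EGR1 over -0.724 to 0.298, FOS over -0.048 to 0.194, JUN over -0.17 to 0.031 and MYC over -0.418 to 0.201. In BF against BA, ATF3 ranged over -0.344 to 0.108, EGR1 over -0.294 to 0.926, IER3 over -0.097 to 0.253, JUND over -0.188 to 0.113, KLF6 over -0.264 to 0.095 and MYC over -0.107 to 0.298.

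No paired analysis was possible because every sample carries the replicate number 1, which pairs nothing beyond the groups and times already used as blocks. Depth is unknown, so counting error could not be given.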
